A study of Mus musculus with 18 samples.

Results

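The interleukin-6 family of cytokines, its receptors and the feedback inhibitor SOCS3 were followed in left ventricular RNA of mice with and without CaMKII in their cardiomyocytes. The members were the rows of the expression table whose Entrez gene carried the symbol Il6, Osm, Lif, Il11, Clcf1, Il6ra, Osmr, Il6st, Lifr or Socs3. All 10 were matched, each by 1 feature, among the 24479 features of the table. DKO mice carried floxed alleles of Camk2g and Camk2d, the genes of the γ and δ isoforms of Ca2+/calmodulin-dependent protein kinase II (CaMKII), together with an α-MHC-Cre transgene, whose promoter directs deletion to cardiomyocytes, so that the other cells of the heart kept both genes. FFFF mice had the same floxed alleles and no Cre, and are labelled wild-type (noCre). Both lines were on a mixed 129/Sv and C57BL/6 background. Mice had sham surgery, or ischemia/reperfusion (I/R), in which the left anterior descending artery was closed for 60 min and reopened, with hearts taken 1 day or 5 days later. The 6 groups were DKO sham, DKO I/R 1 day, DKO I/R 5 days, FFFF sham, FFFF I/R 1 day and FFFF I/R 5 days, with 3 arrays each and 18 in all. The I/R arrays hold RNA of the ischemic area and the sham arrays RNA of left ventricular myocardium, so that the surgery and the sampled area cannot be told apart. No day is given for the sham hearts, and 1 sham group per genotype served as the baseline at both times. Time since surgery and I/R can therefore not be told apart in the differences from sham. The labels number the arrays of a group but name no animals, so that the p-values measure the spread between these arrays.

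Cytokines of this family act through gp130, the shared signal chain encoded by Il6st. IL-6 and IL-11 first bind a private receptor chain (for IL-6 the product of Il6ra) and then gp130, whereas LIF joins gp130 to the LIF receptor, oncostatin M (OSM) in the mouse joins it mainly to the OSM receptor, and CLCF1 acts through the CNTF receptor together with gp130 and the LIF receptor. The assembled receptors activate JAK kinases and the transcription factor STAT3, and STAT3 switches on Socs3, whose product binds gp130 and shuts the signal off. In the heart gp130 signaling is known for its part in cardiomyocyte survival and hypertrophy, and IL-6 for its part in the inflammatory response to infarction.

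Promoters of 8 of the 10 members were in the RefSeq table used here (build GRCm38.p6, 250 bases before to 50 bases after the annotated start), with 10 entries in all because Il11 and Lifr have 2 each. Osm and Clcf1 were without an entry. They were searched on both strands for TTCNNNGAA (STAT), TTCCNGGAA (a stricter STAT motif that is a subset of it), GGNNTTTCC (kappa B-like) and TGANTCA (AP-1). TGANTCA was present in 4 of the 10 entries, those of Il6, Lif, Osmr and 1 of the 2 of Il11, and in 7.81% of all 32851 promoters of the table. TTCNNNGAA was present in Socs3 alone and in 8.3% of all promoters. GGNNTTTCC was present in Il6 alone and in 5.82% of all promoters, and TTCCNGGAA, present in 1.15% of all promoters, was in no entry of a member. These are matches of letters in 1 window, not sites shown to be used. The stretches that hold a match are given for the members whose change after I/R is described below, 5′ to 3′ on the strand of the gene, with the match in capitals: Il6 on the + strand of chr5:30012864-30013113, Il11 on the - strand of chr7:4778142-4778391 and Socs3 on the - strand of chr11:117969367-117969616 (each the 250 bases before the start), and Osmr on the - strand of chr15:6874292-6874321 (30 bases across its start, since its match lies just after it).
Il6: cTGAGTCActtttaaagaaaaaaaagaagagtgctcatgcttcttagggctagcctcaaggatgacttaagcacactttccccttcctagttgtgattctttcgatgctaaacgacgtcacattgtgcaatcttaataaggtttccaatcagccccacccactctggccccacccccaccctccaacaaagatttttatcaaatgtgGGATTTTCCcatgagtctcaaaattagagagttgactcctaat
Il11: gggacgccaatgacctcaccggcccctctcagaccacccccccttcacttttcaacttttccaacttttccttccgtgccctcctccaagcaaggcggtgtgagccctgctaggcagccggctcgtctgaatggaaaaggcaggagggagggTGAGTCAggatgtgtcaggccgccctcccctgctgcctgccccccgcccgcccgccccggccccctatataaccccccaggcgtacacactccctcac
Osmr: tgccccgtagtTGATTCAtagctggggcgc
Socs3: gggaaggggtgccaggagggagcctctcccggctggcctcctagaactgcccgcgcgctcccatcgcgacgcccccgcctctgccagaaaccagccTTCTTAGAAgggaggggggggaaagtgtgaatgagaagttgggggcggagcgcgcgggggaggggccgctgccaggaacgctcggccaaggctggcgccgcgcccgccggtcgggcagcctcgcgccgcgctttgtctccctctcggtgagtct

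Values are log2 expression on one scale, with a median of 4.85 on every array, and levels of different genes are not compared because each feature has probes of its own. The table holds no detection calls. Il6, Osm, Lif and Il11 were low, above the array median on 2, 1, 2 and 1 of 18 arrays. Il6ra, Osmr, Il6st and Lifr were above it on all 18 arrays. Cardiomyocyte markers averaged 12.5 to 13.3 on every array and skeletal muscle markers 4.27 to 4.53. Camk2d and Camk2g, the genes deleted in DKO hearts, read 7.90 to 9.27 and 5.46 to 6.46 on 8 of the 9 DKO arrays, against 9.27 to 9.85 and 6.76 to 7.70 on the 9 FFFF arrays. Replicate 1 of the arrays labelled DKO I/R 1 day read 9.71 for Camk2d and 7.10 for Camk2g, inside the FFFF ranges. The members' DKO differences from sham at 1 day are therefore also given without that array. So are the DKO counts of the gene lists against sham at 1 day. The sources used here do not say which exons the Camk2d and Camk2g features cover. Transcripts of the Y chromosome were present on 2 of 3 arrays in each 5 day group and on no array of the other 4 groups. A fit with sex as a covariate therefore stands beside the 5 day results of the members where it changes a call. The gene and marker lists were not examined in that fit, so their 5 day results are given without it.

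Among the ligands, Il6, Clcf1, Il11 and Osm were higher 1 day after I/R in FFFF hearts, and no ligand passed the test in DKO hearts. In DKO hearts Il6 measured 3.81, 3.87 and 4.03 after sham surgery, 4.42, 3.99 and 5.31 at 1 day and 4.36, 4.27 and 4.13 at 5 days. In FFFF hearts it measured 3.84, 3.92 and 3.87 after sham surgery, 4.58, 4.57 and 6.17 at 1 day and 3.98, 4.59 and 4.53 at 5 days. The FFFF arrays at 1 day all lay above sham, replicate 3 by far the most, and in DKO hearts replicate 2 at 1 day lay within the sham range. The difference from sham at 1 day was 0.67 ± 0.37 in DKO hearts (SE, adjusted p = 0.32) and 1.23 ± 0.37 in FFFF hearts (adjusted p = 0.048), a 2.34-fold rise. That call was lost without any 1 of the 6 arrays except FFFF I/R 1 day replicate 2, by the analysis of variance (adjusted p = 0.079), with the groups fitted alone (adjusted p = 0.11) and with sex as a covariate (adjusted p = 0.059), and without FFFF I/R 1 day replicate 3 the difference was 0.70 (adjusted p = 0.16). Here and below, differences are log2, errors are the SE from limma and p-values are adjusted over all 24479 features, with a threshold of 0.05. In whole tissue, fewer or more cells that make an RNA cannot be told apart from less or more RNA per cell.

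Clcf1, a ligand of the CNTF receptor, had the largest difference from sham at 1 day among the 5 ligands in each genotype. In DKO hearts it measured 5.17, 4.64 and 5.23 after sham surgery, 6.51, 5.13 and 6.54 at 1 day and 5.07, 4.65 and 4.90 at 5 days. In FFFF hearts it measured 4.85, 4.88 and 4.88 after sham surgery, 6.87, 5.82 and 5.96 at 1 day and 4.87, 5.17 and 4.69 at 5 days. It was high at 1 day only, on every FFFF array and on all DKO arrays but replicate 2, which lay within the range of DKO sham. The difference from sham at 1 day was 1.04 ± 0.34 in DKO hearts (adjusted p = 0.087) and 1.34 ± 0.34 in FFFF hearts (adjusted p = 0.024). The DKO difference was 0.82 (adjusted p = 0.31) without DKO I/R 1 day replicate 1, 1.51 (adjusted p = 0.0029) without replicate 2 and 0.80 (adjusted p = 0.24) without replicate 3. Between 1 day and 5 days Clcf1 fell by 1.30 in FFFF hearts (adjusted p = 0.036), and the DKO difference was -1.18 (adjusted p = 0.064).

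Il11, known as a cytokine of cardiac fibroblasts, followed the same course at a lower amplitude. In DKO hearts it measured 4.18, 4.14 and 4.22 after sham surgery, 4.32, 4.16 and 4.85 at 1 day and 4.17, 4.27 and 4.33 at 5 days. In FFFF hearts it measured 4.29, 4.27 and 4.15 after sham surgery, 4.76, 4.55 and 5.44 at 1 day and 4.17, 4.13 and 4.18 at 5 days. All FFFF arrays at 1 day lay above all other FFFF arrays, and DKO replicate 3 was the single DKO array in their range. The difference from sham at 1 day was 0.26 ± 0.19 in DKO hearts (adjusted p = 0.47) and 0.68 ± 0.19 in FFFF hearts (adjusted p = 0.033), and from 1 day to 5 days Il11 fell by 0.76 in FFFF hearts (adjusted p = 0.030). Without FFFF I/R 1 day replicate 3 these FFFF differences were 0.42 and -0.50, and neither was called.

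Osm, made chiefly by myeloid cells, ranged from 4.27 to 4.51 in DKO sham, 4.45 to 4.90 in DKO I/R 1 day and 4.43 to 4.48 in DKO I/R 5 days hearts, and from 4.11 to 4.31 in FFFF sham, 4.53 to 4.79 in FFFF I/R 1 day and 4.49 to 4.57 in FFFF I/R 5 days hearts. The FFFF I/R arrays at both times lay above FFFF sham, and the DKO groups overlapped. Osm rose by 0.43 ± 0.11 at 1 day in FFFF hearts (adjusted p = 0.023), against a difference of 0.21 ± 0.11 in DKO hearts (adjusted p = 0.28). At 5 days the differences were 0.04 (adjusted p = 0.89) in DKO hearts and 0.32 (adjusted p = 0.055) in FFFF hearts. Lif, the ligand of the LIF receptor, stayed between 4.23 and 4.90 on the 18 arrays with overlap between all groups, and its largest difference from sham, at 1 day in FFFF hearts, was 0.28 ± 0.15 (adjusted p = 0.28).

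**Figure D1:**
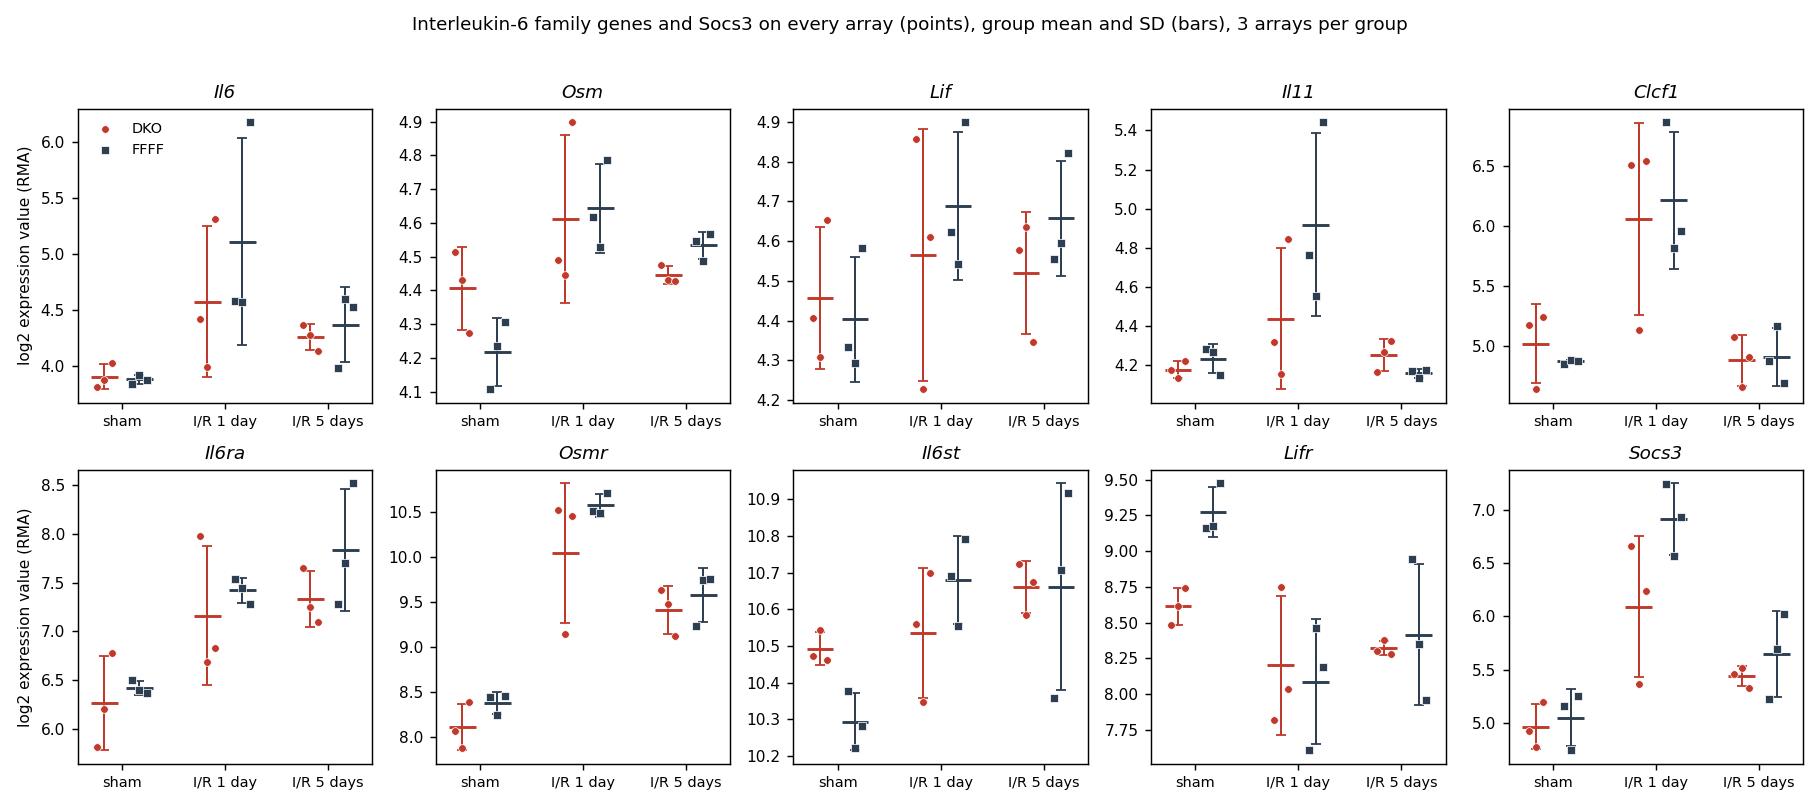
Log2 expression value (RMA) of the 10 members on each of the 18 arrays, with DKO (circles) to the left of FFFF (squares) at sham, I/R 1 day and I/R 5 days, the group mean as a short line and the SD as an error bar, 3 arrays per group, and a vertical scale of its own in each panel. Osmr and Socs3 are highest at 1 day in both genotypes, and in both the DKO array far below the others at 1 day is replicate 2 (9.15 and 5.36).

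Among the receptor genes, Osmr rose in both genotypes at both times. In DKO hearts it measured 8.06, 7.88 and 8.39 after sham surgery, 10.53, 9.15 and 10.46 at 1 day and 9.64, 9.48 and 9.12 at 5 days. Osmr in FFFF hearts measured 8.44, 8.24 and 8.46 after sham surgery, 10.52, 10.49 and 10.72 at 1 day and 9.24, 9.75 and 9.76 at 5 days. Every I/R array lay above every sham array of either genotype, and at 1 day the 3 FFFF arrays and 2 of the 3 DKO arrays lay between 10.46 and 10.72 while DKO replicate 2 measured 9.15. Osmr rose by 1.93 ± 0.29 at 1 day in DKO hearts (3.81-fold, adjusted p = 0.0046) and by 2.19 ± 0.29 in FFFF hearts (4.58-fold, adjusted p = 0.0014). At 5 days it rose by 1.30 in DKO hearts (adjusted p = 0.022) and by 1.20 in FFFF hearts (adjusted p = 0.012). With sex as a covariate the 5 day differences were 1.25 (adjusted p = 0.084) in DKO hearts and 1.14 (adjusted p = 0.054) in FFFF hearts. Without replicate 1, whose Camk2d and Camk2g values lay inside the FFFF ranges, the DKO rise at 1 day was 1.69 (adjusted p = 0.025), and without replicate 2 it was 2.38 (adjusted p = 2.4e-05). The group means ran from I/R 1 day over I/R 5 days to sham in both genotypes, and the step from 1 day to 5 days was not called (-0.63, adjusted p = 0.25, in DKO hearts and -0.99, adjusted p = 0.059, in FFFF hearts).

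Il6ra, the IL-6 binding chain, had its highest group mean at 5 days in each genotype, but the arrays of 1 day and 5 days overlapped. The step from 1 day to 5 days was 0.17 (adjusted p = 0.86) in DKO hearts and 0.41 (adjusted p = 0.61) in FFFF hearts. In DKO hearts it measured 5.81, 6.21 and 6.77 after sham surgery, 7.98, 6.68 and 6.83 at 1 day and 7.65, 7.25 and 7.09 at 5 days. In FFFF hearts it measured 6.50, 6.40 and 6.37 after sham surgery, 7.54, 7.45 and 7.28 at 1 day and 7.28, 7.70 and 8.52 at 5 days. All I/R arrays lay above the sham arrays of their genotype except DKO I/R 1 day replicate 2. Il6ra rose by 1.41 ± 0.35 at 5 days in FFFF hearts (2.66-fold, adjusted p = 0.013), against a difference of 1.07 ± 0.35 in DKO hearts (adjusted p = 0.080). At 1 day the differences were 0.90 (adjusted p = 0.14) in DKO hearts and 1.00 (adjusted p = 0.077) in FFFF hearts.

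Lifr, the LIF receptor chain, was the single member that fell relative to sham, and it did so in FFFF hearts. In DKO hearts it measured 8.48, 8.62 and 8.74 after sham surgery, 7.82, 8.75 and 8.03 at 1 day and 8.30, 8.38 and 8.28 at 5 days. Lifr in FFFF hearts measured 9.16, 9.18 and 9.47 after sham surgery, 7.60, 8.46 and 8.19 at 1 day and 8.94, 8.35 and 7.96 at 5 days. The FFFF sham arrays stood above all 15 other arrays, and the DKO sham arrays stood below them. Lifr fell by 1.19 at 1 day (SE 0.27, adjusted p = 0.015) and by 0.86 at 5 days (adjusted p = 0.039) in FFFF hearts, and the DKO differences were -0.41 (adjusted p = 0.40) and -0.29 (adjusted p = 0.58). The difference between the genotypes in the 1 day response was 0.77 ± 0.38, with a 95% interval of -0.04 to 1.58 and an unadjusted p of 0.060 that did not pass over all features. Il6st (gp130) ranged only from 10.22 to 10.92 over the 18 arrays. It rose by 0.37 at 5 days in FFFF hearts (adjusted p = 0.049), where its arrays (10.36, 10.71 and 10.92) overlapped those of FFFF sham (10.38, 10.22 and 10.28) and the difference was 0.24 and not called without FFFF I/R 5 days replicate 3, and its 1 day difference was 0.04 (adjusted p = 0.89) in DKO hearts and 0.39 (adjusted p = 0.053) in FFFF hearts.

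Socs3, the STAT3-induced inhibitor of gp130, rose at 1 day in both genotypes and passed the test in neither at 5 days. In DKO hearts it measured 4.93, 4.77 and 5.19 after sham surgery, 6.67, 5.36 and 6.24 at 1 day and 5.46, 5.51 and 5.33 at 5 days. Socs3 in FFFF hearts measured 5.15, 4.74 and 5.25 after sham surgery, 7.24, 6.56 and 6.93 at 1 day and 5.23, 5.69 and 6.03 at 5 days. At 1 day the highest DKO array lay just above the lowest FFFF array, and DKO replicate 2 lay just above DKO sham. Socs3 rose by 1.13 ± 0.29 in DKO hearts (2.18-fold, adjusted p = 0.040) and by 1.87 ± 0.29 in FFFF hearts (3.65-fold, adjusted p = 0.0029). The DKO rise was no longer called without that replicate 1 (0.84, adjusted p = 0.17) without replicate 3 (1.05, adjusted p = 0.11) or without any 1 DKO sham array, and it was 1.49 (adjusted p = 0.0019) without replicate 2. Between 1 day and 5 days Socs3 fell by 1.27 in FFFF hearts (adjusted p = 0.020), and the DKO difference was -0.65 (adjusted p = 0.23). At 5 days the differences from sham were 0.47 (adjusted p = 0.37) in DKO hearts and 0.60 (adjusted p = 0.18) in FFFF hearts.

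**Figure D2:**
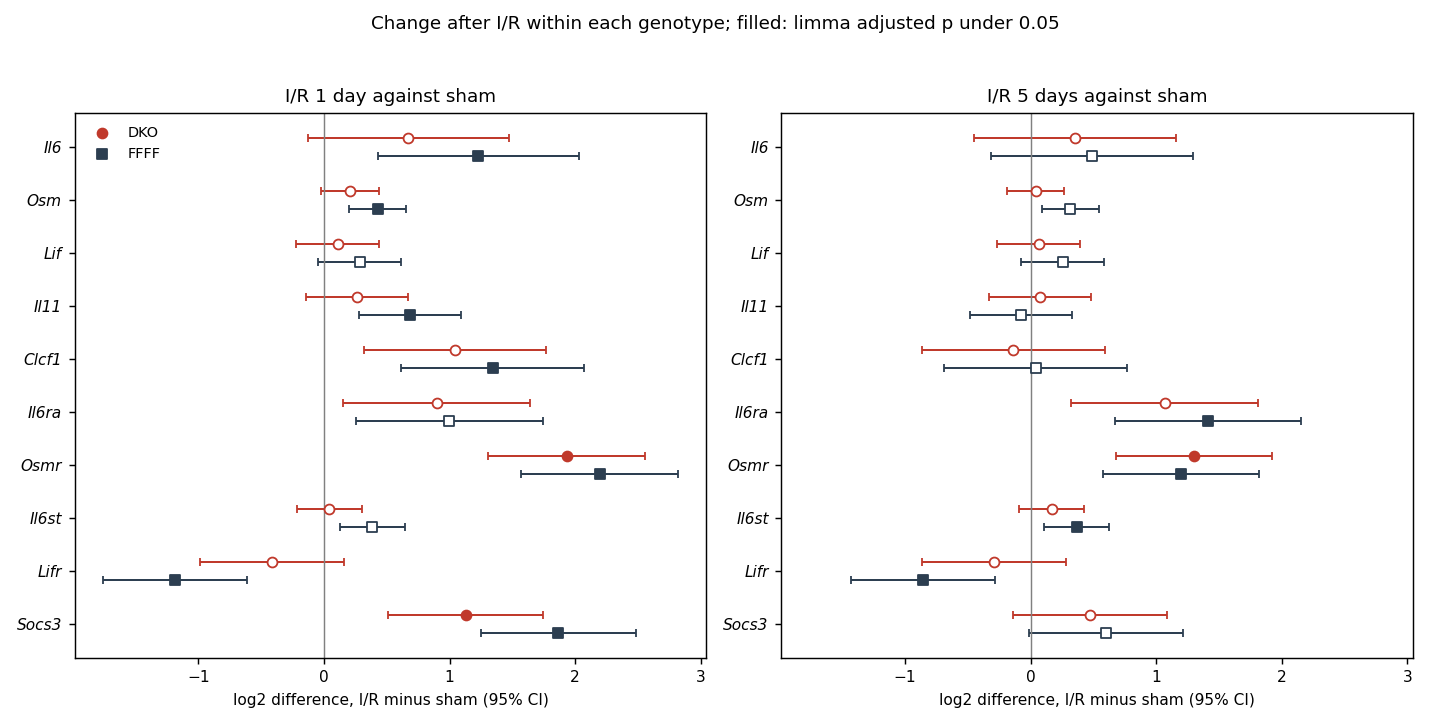
Log2 difference of I/R minus sham for the 10 members at 1 day (left) and 5 days (right), DKO (circles) above FFFF (squares), with 95% confidence intervals from limma and filled symbols at an adjusted p under 0.05. At 1 day 2 members are filled in DKO hearts (Osmr and Socs3) and 7 in FFFF hearts.

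Counted together, 2 of 10 members rose and none fell 1 day after I/R in DKO hearts, where 2.58% of all features rose and 2.54% fell. In FFFF hearts 6 rose (Il6, Osm, Il11, Clcf1, Osmr and Socs3) and 1 fell (Lifr), where 5.93% of all features rose and 5.79% fell. At 5 days 1 member rose in DKO hearts (Osmr), where 3.23% of features rose and 2.84% fell. In FFFF hearts at 5 days 3 rose (Il6ra, Osmr and Il6st) and 1 fell (Lifr), where 8.26% of features rose and 10% fell. The median difference of the members at 1 day was 0.47 in DKO hearts and 0.84 in FFFF hearts, beside 0.0052 and -0.011 for all features, and at 5 days it was 0.12 and 0.34, beside -0.016 for all features in each. The 1 day median was 0.41, 0.68 and 0.19 in DKO hearts without I/R replicate 1, 2 and 3 in turn, and 0.56 in FFFF hearts without I/R replicate 3. Between 1 day and 5 days no member passed in DKO hearts (3 at an unadjusted p under 0.05), where 2.45% of features rose and 2.14% fell, and 3 fell in FFFF hearts (Il11, Clcf1 and Socs3), where 3.05% rose and 3.20% fell. With sex as a covariate none of these 3 passed.

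Without DKO I/R 1 day replicate 1 the DKO differences from sham at 1 day were 0.75 for Il6, 0.27 for Osm, 0.32 for Il11, 0.49 for Il6ra, -0.22 for Lifr, 0.031 for Il6st and -0.038 for Lif, which was 0.11 with it. None of these 7 was called, with adjusted p of 0.30 or above, and 0.437% of all features rose and 0.404% fell in that fit. Osmr was the single member called.

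These counts of members moved with single arrays, and so did the counts over all features. At 1 day in DKO hearts 206 features were called without I/R replicate 1 and 3349 without replicate 2, beside 1252 with all arrays. At 1 day in DKO hearts Osmr was called without any 1 of the 6 arrays, alone without DKO I/R 1 day replicate 1 or 3 or any DKO sham array, and with Clcf1 and Socs3 without DKO I/R 1 day replicate 2. At 1 day in FFFF hearts 3 members were called without FFFF sham replicate 1 or 2 (Osmr, Lifr and Socs3), 3 without FFFF sham replicate 3 (Osm, Osmr and Socs3), 2 without FFFF I/R 1 day replicate 1 (Osmr and Socs3), 8 without replicate 2 and 4 without replicate 3 (Clcf1, Osmr, Lifr and Socs3). Over all features 617 were called there without FFFF I/R 1 day replicate 1, 3331 without replicate 2 and 2870 with all arrays. At 5 days in DKO hearts no member was called without DKO sham replicate 1 or 2 or DKO I/R 5 days replicate 1 or 2. Without that I/R replicate 1, 167 features were called, beside 1487 with all arrays. At 5 days in FFFF hearts Il6ra and Osmr were called without any 1 FFFF sham array. Il6ra alone was called without FFFF I/R 5 days replicate 2 and none without replicate 3. Without that replicate 3, 1942 features were called, beside 4475 with all arrays. In the step from 1 day to 5 days in FFFF hearts no member was called without FFFF I/R 1 day replicate 1 or 3 or FFFF I/R 5 days replicate 2, and Socs3 alone was called without FFFF I/R 5 days replicate 3. Over all features that FFFF step had 513 calls without FFFF I/R 5 days replicate 2 and 1531 with all arrays. In the same step in DKO hearts Clcf1, Osmr and Socs3 were called without DKO I/R 1 day replicate 2. Then 2041 features were called, beside 1124 with all arrays. No member was called in the DKO step without DKO I/R 1 day replicate 1, where Osmr differed by -0.38 and Socs3 by -0.37.

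No member differed between DKO and FFFF hearts by the limma test at any time. After sham surgery 0 of 10 members were called, where 0.00817% of features were, and 1 member had an unadjusted p under 0.05, beside 1459 features. At 1 day 0 members and 0% of features were called, with 2 members and 1639 features at an unadjusted p under 0.05. At 5 days 0 members and 0% of features were called, with 0 members and 590 features at an unadjusted p under 0.05. A gene-wise analysis of variance also called 0 members at each time. The arrays of the genotypes did not overlap for 2 members after sham surgery (Il6st and Lifr), 0 at 1 day and 1 at 5 days (Osm), where 15.5%, 9.82% and 7.56% of all features did not overlap. Lifr after sham surgery was lower in DKO hearts on every array, with a difference of -0.66 ± 0.27, a 95% interval of -1.23 to -0.09 and an adjusted p of 0.77.

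At 1 day the DKO minus FFFF difference was below 0 for 9 of 10 members, with a median of -0.21 beside 0.0072 for all features, and Lifr was the exception (0.11). Socs3 had the largest difference, -0.82 ± 0.29, with a 95% interval of -1.44 to -0.21 (adjusted p = 0.67). Osmr differed by -0.53 ± 0.29 (interval -1.15 to 0.09), Il6 by -0.53 ± 0.37 (interval -1.34 to 0.27) and Il11 by -0.48 ± 0.19 (interval -0.89 to -0.07), with adjusted p of 0.79, 0.84 and 0.69. Taken by replicate number, the DKO minus FFFF difference was -0.58, -1.20 and -0.69 for Socs3 and -0.44, -0.40 and -0.60 for Il11, and all 3 were also below 0 for Il6 and Il6st. In a blocked fit of these 2 groups alone, the replicate number being the block, Socs3 had an unadjusted p of 0.0052 and Il11 of 0.0028 (adjusted p = 0.50 for each). The labels do not say what a replicate number marks. The block was chosen from these same values, so that its p-values are a description only. Replicate 1 of DKO is the array whose Camk2d and Camk2g values lay inside the FFFF ranges. The share of all features with all 3 differences below 0 was not counted. The size of the differences moved with single arrays. Without DKO I/R 1 day replicate 1 Socs3 differed by -1.11 (adjusted p = 0.25) and Osmr by -0.78 (adjusted p = 0.45), with a median of -0.40 for the members. Without DKO I/R 1 day replicate 2 Socs3 differed by -0.46 and Osmr by -0.08, with a median of -0.07. Without FFFF I/R 1 day replicate 3 Il6 differed by -0.00016 and Il11 by -0.22. The difference was below 0 for 8 members without DKO I/R 1 day replicate 1, for 7 without replicate 2 and for 9 without replicate 3. At 5 days the difference was below 0 for 9 of 10 members, with a median of -0.11, and the largest was that of Il6ra (-0.50 ± 0.35, interval -1.25 to 0.24). After sham surgery it was below 0 for 5 of 10, with a median of -0.02. The genes were measured on the same arrays and are not independent of each other.

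**Figure D3:**
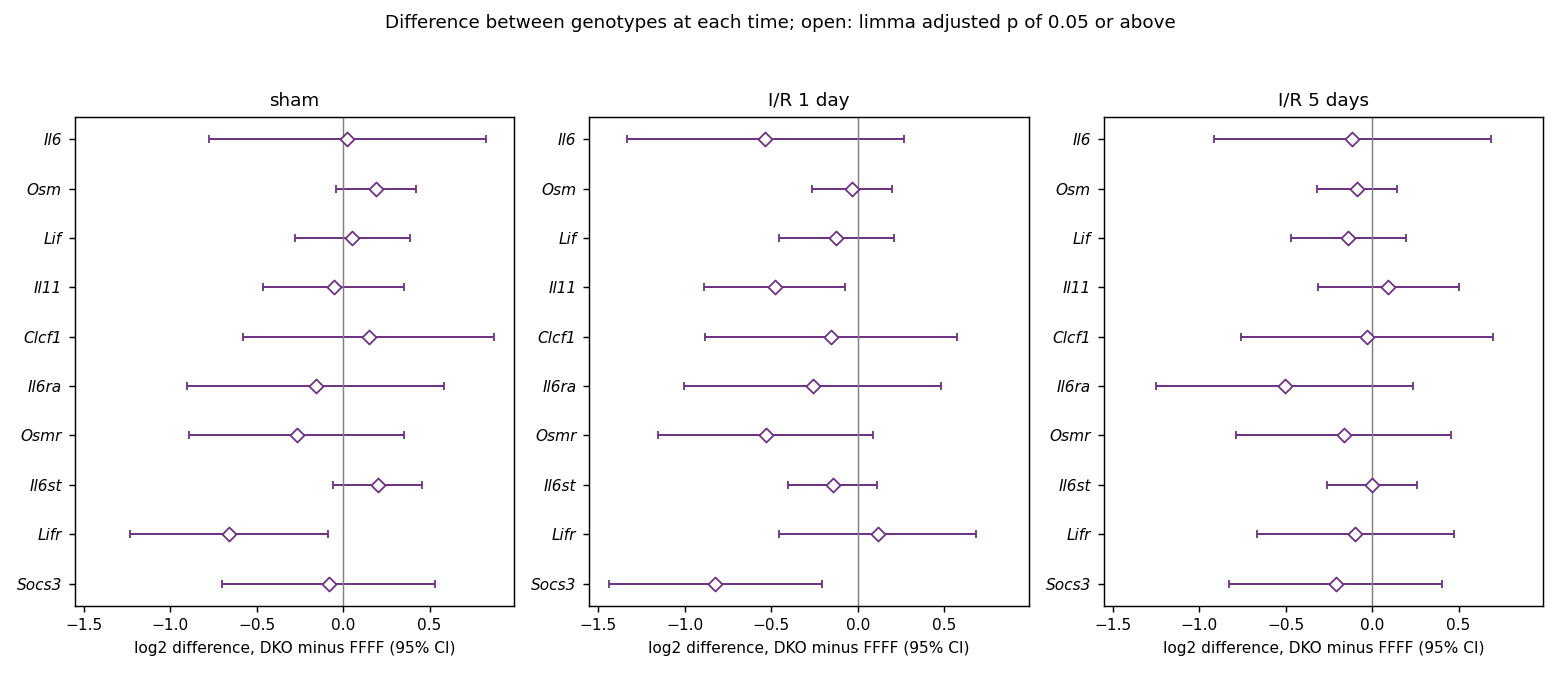
Log2 difference of DKO minus FFFF for the 10 members after sham surgery and at I/R 1 day and I/R 5 days, with 95% confidence intervals from limma; open diamonds have an adjusted p of 0.05 or above. All 30 diamonds are open, and at 1 day the intervals of Il11 and Socs3 lie below 0 before adjustment.

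The response to I/R itself was compared between the genotypes as an interaction. At 1 day 0 members were called, where 0.00409% of features were, and at 5 days 0 members and 0% of features were called. At an unadjusted p under 0.05 there were 0 members at each time, beside 1125 and 979 features, and the analysis of variance called 0 members at each time. The DKO response at 1 day minus the FFFF response was -0.74 ± 0.41 for Socs3 (interval -1.61 to 0.13), -0.34 ± 0.17 for Il6st (interval -0.71 to 0.02) and -0.26 ± 0.41 for Osmr (interval -1.14 to 0.62). All 3 intervals hold 0, and a true difference of -1.61 for Socs3 lies within its interval too. Without DKO I/R 1 day replicate 1, 2 members had an unadjusted p under 0.05 (Socs3 with a difference of -1.03 and Lifr with 0.96) and 0 were called. Without replicate 3 there were 3 (Osm, Il11 and Il6st) and without replicate 2 there were 0, again with 0 called.

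Among the signaling components downstream of gp130 the same 4 genes were called at 1 day in both genotypes. Of 12 JAK kinases, STATs and adaptors, 2 rose and 2 fell at 1 day in DKO hearts and 2 rose and 2 fell in FFFF hearts, by name Stat3 and Shc1 (higher) and Stat5b and Gab1 (lower) in each. At 5 days 1 rose and 1 fell in DKO hearts and 3 rose in FFFF hearts. Over all features 2.58% rose and 2.54% fell at 1 day in DKO hearts, and 5.93% rose and 5.79% fell in FFFF hearts. At 5 days 3.23% rose and 2.84% fell in DKO hearts, and 8.26% rose and 10% fell in FFFF hearts. Stat3, the main transcription factor of gp130, rose by 0.65 ± 0.09 in DKO hearts at 1 day (adjusted p = 0.0030) and by 0.71 ± 0.09 in FFFF hearts (adjusted p = 0.0012), and by 5 days it had fallen by 0.44 in DKO hearts and by 0.40 in FFFF hearts. Shc1, an adaptor to the Ras pathway, rose by 0.49 in DKO hearts and by 0.53 in FFFF hearts at 1 day. Stat5b fell by 0.74 in DKO hearts and by 0.78 in FFFF hearts, and Gab1, a docking protein, fell by 0.72 in DKO hearts and by 0.71 in FFFF hearts. The median of the 12 genes at 1 day was -0.04 in DKO hearts and -0.03 in FFFF hearts. Without DKO I/R 1 day replicate 1 Stat3 was the single gene of the 12 called in DKO hearts (0.56, adjusted p = 0.016).

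Of 10 other ligands and receptors of the family described here, 0 passed at 1 day in either genotype, and at 5 days 1 fell in DKO hearts and 1 rose in FFFF hearts. At 1 day 0 also passed in DKO hearts without I/R 1 day replicate 1. Ebi3, a subunit of IL-27, rose by 0.44 in FFFF hearts at 5 days. Il31ra, a receptor chain of IL-31, fell by 0.22 in DKO hearts at 5 days. Neither was called in the other genotype at that time. None of the 10 genes was called between the genotypes or in the interactions. Ctf1 (cardiotrophin-1) differed by -0.69 ± 0.24 in FFFF hearts at 1 day, with an adjusted p of 0.079. Of 13 other SOCS, PIAS and phosphatase inhibitors, 1 rose and 1 fell at 1 day in DKO hearts. In FFFF hearts 2 rose and 1 fell. The shares over all features were those given for the JAK and STAT list above. Ptpn2, a phosphatase of JAK and STAT proteins, rose by 0.61 in DKO hearts and by 0.57 in FFFF hearts, and Pias1, an inhibitor of STAT proteins, fell by 0.41 in DKO hearts and by 0.39 in FFFF hearts. Neither was called in DKO hearts without I/R 1 day replicate 1 (adjusted p = 0.16 for each). Ptpn6, a phosphatase of leukocytes, rose by 1.73 in FFFF hearts at 1 day and by 2.11 at 5 days. In DKO hearts Ptpn6 was not called at either time. None of the 13 genes was called between the genotypes or in the interactions. Pias4 passed in no comparison, its largest difference from sham being -0.36 at 5 days in FFFF hearts (adjusted p = 0.052).

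Of 24 genes known to respond to gp130 and STAT3, 10 rose and none fell at 1 day in DKO hearts, with a median difference of 0.88, where 2.58% of all features rose. In FFFF hearts 11 rose and none fell, with a median of 0.71, where 5.93% of all features rose. The others did not pass, and 5 of the 24 in DKO hearts and 4 in FFFF hearts had differences below 0. At 5 days 5 rose in DKO hearts and 6 rose in FFFF hearts, where 3.23% and 8.26% of all features rose. When DKO I/R 1 day replicate 1 was left out, 5 genes rose in DKO hearts at 1 day. The median was then 0.76, and 0.437% of all features rose. Timp1, an inhibitor of metalloproteinases, rose by 4.77 ± 0.42 in DKO hearts and by 5.56 ± 0.42 in FFFF hearts at 1 day. Lcn2 (lipocalin-2) rose by 4.94 in DKO hearts and by 4.59 in FFFF hearts, Serpina3n by 3.11 in DKO hearts and by 2.68 in FFFF hearts, and the metallothionein gene Mt2 by 2.08 in DKO hearts and by 1.68 in FFFF hearts. By 5 days, relative to 1 day, 5 of the 24 fell in DKO hearts and 6 in FFFF hearts. None of the 24 was called between the genotypes. The median DKO minus FFFF difference at 1 day was 0.0022, with 12 of 24 below 0, beside -0.21 for the 10 members. The mean of the 24 genes at 1 day was 7.61, 6.97 and 7.27 on DKO replicates 1, 2 and 3. On the FFFF replicates it was 7.30, 7.39 and 7.40. DKO replicate 1, the highest, is the array with Camk2d and Camk2g inside the FFFF ranges. The median genotype difference of the 24 genes without it was not computed. Pim1 and Cebpb, named after their values were seen, had the smallest unadjusted p among the 24 for the difference between the genotypes in the 1 day response. It was -1.16 ± 0.39 (adjusted p = 0.99) for Pim1, a kinase gene, which differed from sham by -0.45 in DKO hearts and by 0.71 in FFFF hearts. It was 0.93 ± 0.33 (adjusted p = 1.00) for Cebpb, a transcription factor of acute phase genes, which rose by 1.03 in DKO hearts and differed by 0.10 in FFFF hearts.

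**Figure D4:**
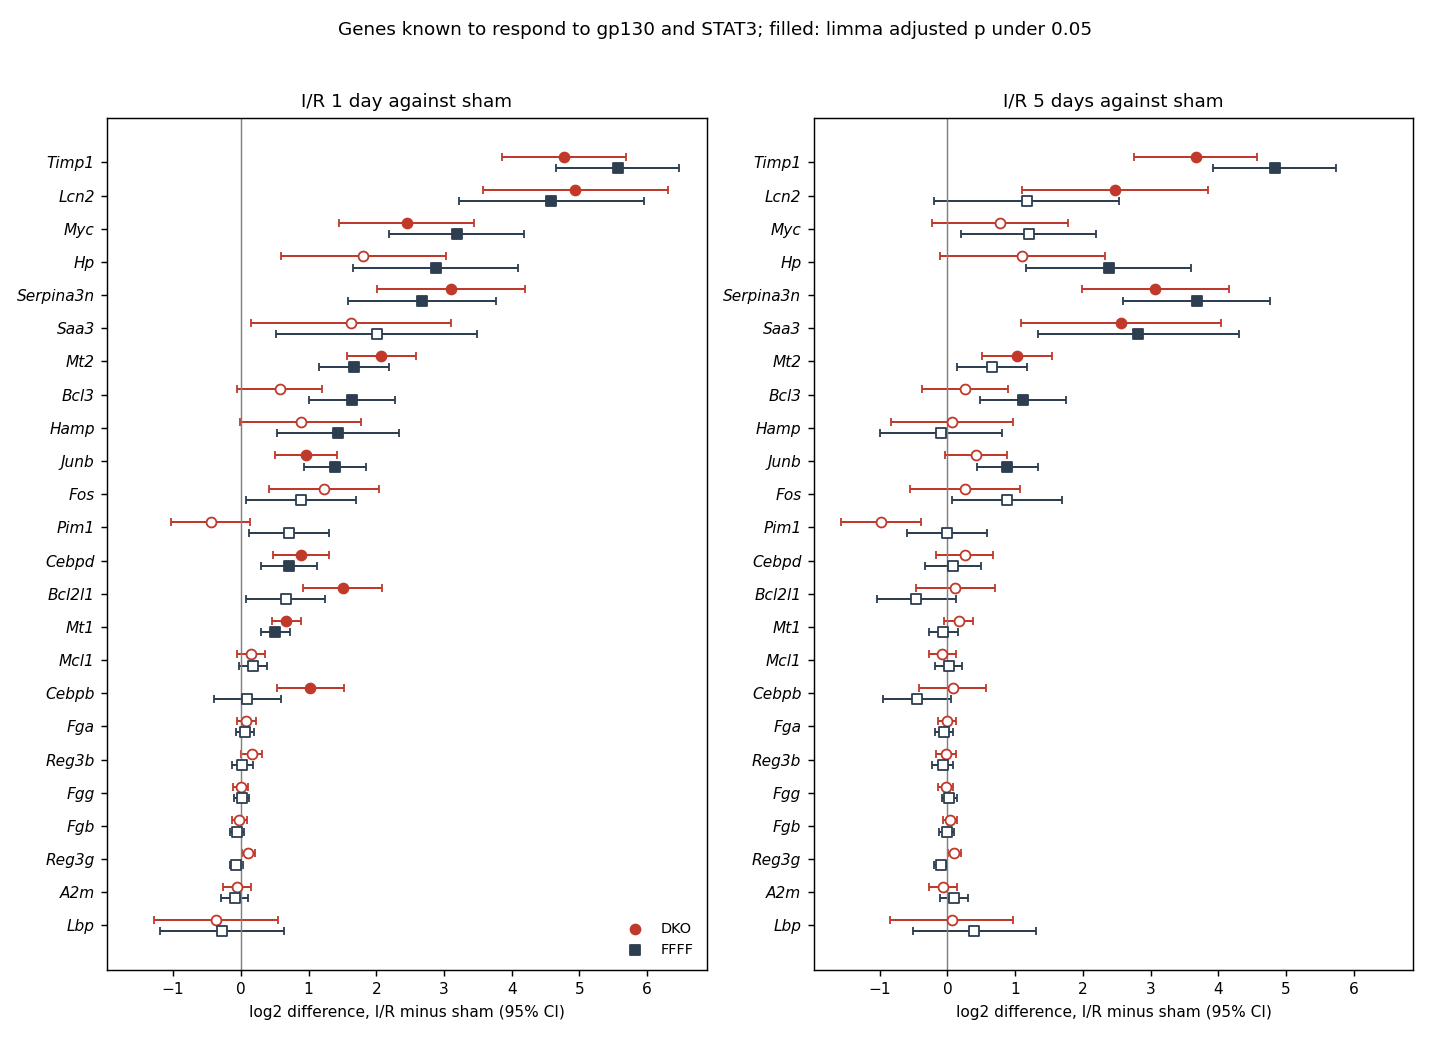
Log2 difference of I/R minus sham for 24 genes known to respond to gp130 and STAT3, ordered by the FFFF difference at 1 day, at 1 day (left) and 5 days (right), DKO (circles) above FFFF (squares), with 95% confidence intervals from limma and filled symbols at an adjusted p under 0.05. At 1 day 10 genes are filled in DKO hearts and 11 in FFFF hearts, led by Timp1 and Lcn2, while the fibrinogen genes Fga, Fgb and Fgg lie near 0.

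Markers of other cell types were measured on the same arrays, and their part in the members' results was not tested. Over all features 2.58% rose and 2.54% fell at 1 day in DKO hearts, and 5.93% rose and 5.79% fell in FFFF hearts. At 5 days 3.23% rose in DKO hearts and 8.26% in FFFF hearts. The mean of 8 neutrophil markers was 7.23, 4.30 and 5.15 on the 3 DKO arrays at 1 day, against 7.20, 6.21 and 7.09 on the 3 FFFF arrays and 4.20 to 4.30 after sham surgery in either genotype. DKO replicate 2 was the lowest of the DKO arrays at 1 day for every member except Lifr, for which it was highest. It was also the lowest here. At 1 day 0 of the 8 neutrophil markers passed in DKO hearts and 7 rose in FFFF hearts, and none differed between the genotypes by the test. In DKO hearts 0 passed without I/R replicate 1 and 5 rose without I/R replicate 2. Of 7 measured monocyte and macrophage markers (Lyz2 was not matched), 1 rose in DKO hearts and 4 in FFFF hearts at 1 day, and 5 rose in DKO hearts and 7 in FFFF hearts at 5 days. Their mean at 5 days was 9.0 to 9.62 in DKO hearts and 8.46 to 10.43 in FFFF hearts. Of 8 fibroblast markers, 0 rose in DKO hearts and 3 in FFFF hearts at 1 day, and 5 rose in DKO hearts and 7 in FFFF hearts at 5 days. After sham surgery their mean was 9.39 to 9.85 in DKO hearts and 8.66 to 8.76 in FFFF hearts. These groups did not overlap, but 0 of the 8 markers were called between the genotypes there. Lifr did not overlap there either, in the opposite direction (lower in DKO hearts), and neither did 15.5% of all features. Of 8 cardiomyocyte markers, 1 fell in DKO hearts and 1 in FFFF hearts at 1 day, and of 8 endothelial markers 1 fell in each. Of 8 T cell markers 0 passed at 1 day in either genotype, and of 4 atrial markers 0 passed in DKO hearts and 1 rose in FFFF hearts. Without DKO I/R 1 day replicate 1, no monocyte and macrophage, fibroblast, cardiomyocyte, T cell or atrial marker passed in DKO hearts at 1 day. In that fit 1 endothelial marker fell.

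**Figure D5:**
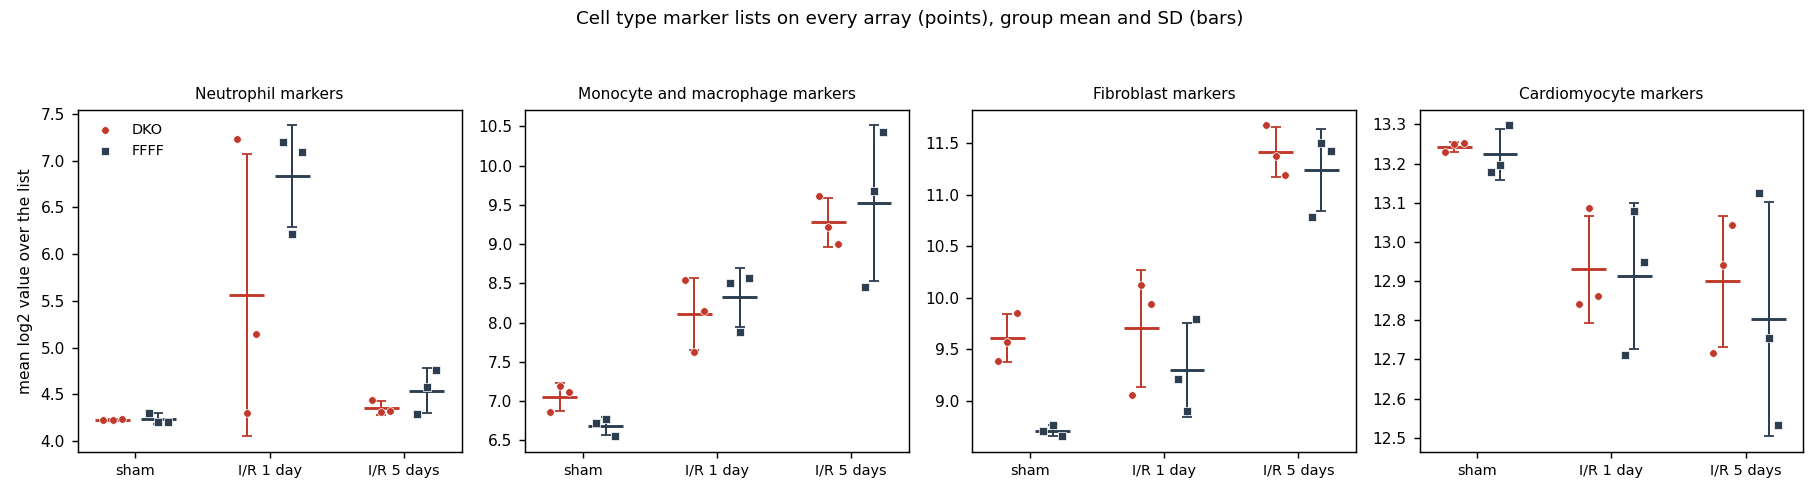
Mean log2 value over the neutrophil (8 genes), monocyte and macrophage (7 genes), fibroblast (8 genes) and cardiomyocyte (8 genes) marker lists on each array, DKO (circles) to the left of FFFF (squares), with group mean and SD, 3 arrays per group. The neutrophil mean at 1 day spreads from 4.30 to 7.23 in DKO hearts and from 6.21 to 7.20 in FFFF hearts.

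The members also varied together across the 18 arrays, as a description of arrays that share the same 6 groups. All 36 pairs without Lifr had a Pearson correlation above 0, and all 9 pairs with Lifr one below 0. The highest was that of Osmr with Socs3 (r = 0.93) and the lowest that of Il6st with Lifr (r = -0.83). Of the other features, those most like Osmr included Msn (r = 0.97), the gene of moesin, and Ch25h (r = 0.97), which encodes a cholesterol hydroxylase. Those most like Socs3 were Csf3r (r = 0.97), the receptor of G-CSF and a member of the neutrophil list, Myc (r = 0.97) and Ccr1 (r = 0.96), a chemokine receptor of myeloid cells. Those most like Il6 were Pole2 (r = 0.94) and Prim1 (r = 0.92), of DNA replication, and Has2 (r = 0.93), a hyaluronan synthase. Those most like Osm were Dtl (r = 0.88), Mcm5 (r = 0.86) and Kntc1 (r = 0.85), genes of cell division.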

How the data were processed

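RNA of 18 left ventricular samples was hybridised to Affymetrix mouse gene 2.0 ST arrays. The authors deposited log2 values, computed by RMA (version not stated) with quantile normalization and a custom chip definition file (version 18) in which each Entrez gene has 1 feature. Each array is 1 sample. Quantile normalization gives every array one distribution, so that a shift of all genes cannot be seen. Groups follow the labels. A linear model of the 6 groups was fitted to all 24479 features (R 4.3.3, limma 3.58.1, eBayes, 12 residual degrees of freedom), with Benjamini-Hochberg adjustment over all features for each contrast and a threshold of 0.05. The script was tested on simulated data. The members and gene lists were chosen with earlier results of these data known. All 10 members are named, and up to 4 genes of each list, those with the smallest p over the 4 I/R against sham contrasts; for Il6, Osm, Osmr and Socs3 the 3 features with the highest Pearson correlation are named. Some genes that these rules pick are not reported here, and 1 was left out of the list of other ligands and receptors.

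No 2 arrays were identical (correlations 0.913 to 0.994). Deviations of arrays with the same replicate number from their group means correlated at 0.382, 0.529 and 0.360 between DKO and FFFF hearts at 1 day, so that the numbers were taken as pairs there, from the values and not from a statement in the labels; they did not pair the arrays of the other comparisons. Alternatives were a variance trend with robust moderation, array weights, a gene-wise analysis of variance, an adjusted p of 0.01, the compared groups fitted alone, a filter on low values (above the 40th percentile on 3 arrays, 16091 features), cyclic loess, the replicate number as a block, sex as a covariate and leaving out each array. The counts of the gene lists without each DKO I/R 1 day array were chosen after seeing the data. Precision is limited by 3 arrays per group.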

Additional observations from a re-analysis of the deposited data

How the results depend on the processing

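Calls of single members moved with the processing. The variance trend, analysis of variance, adjusted p of 0.01, groups fitted alone, low filter and replicate block use the same group means. The sign of a difference could therefore not change under them. The tally below holds every DKO minus FFFF difference and, of the other member differences, those with the smaller unadjusted p-values. Of the member differences under settings other than leaving out an array, 542 kept direction and call, 39 lost the call, 21 gained it and 2 changed sign; when arrays were left out, 342 kept both, 53 lost the call, 5 gained it and 20 changed sign. The sign changes lay in the genotype differences, none of which was called. With array weights Osm differed at 1 day by 0.0058 and Clcf1 by 0.023. Leaving out an array gave ranges after sham surgery of -0.046 to 0.14 for Lif, -0.24 to 0.017 for Socs3, -0.42 to 0.066 for Il6ra, -0.038 to 0.070 for Il6 and -0.062 to 0.067 for the median of the members. At 1 day they were -0.18 to 0.051 for Osm, -0.39 to 0.31 for Clcf1, -0.16 to 0.31 for Lifr and -0.27 to 0.044 for Lif, and at 5 days -0.33 to 0.17 for Lifr, -0.14 to 0.10 for Clcf1 and -0.15 to 0.13 for Il6st. The causes were not tested.

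Of the members, 2 were called 1 day after I/R in DKO hearts, 3 with array weights, 1 by the analysis of variance, 1 at an adjusted p of 0.01, 0 with the groups fitted alone and 1 to 3 without an array. At 5 days 1 was called in DKO hearts, 2 with array weights, 0 at an adjusted p of 0.01, 4 with the groups fitted alone (Il6, Il6ra, Osmr and Socs3), 2 with the low filter, 0 with sex as a covariate and 0 to 1 without an array. In FFFF hearts at 1 day 7 were called, 9 with array weights, 2 at an adjusted p of 0.01 and 2 to 8 without an array. There the analysis of variance lost Il6 and Il11, and the low filter gained Il6ra and Il6st. The groups fitted alone lost Il6 and Il11 and gained Il6ra and Il6st. Sex as a covariate lost Il6 and gained Il6st. In FFFF hearts at 5 days 4 were called, 6 with array weights, 2 by the analysis of variance, 0 at an adjusted p of 0.01, 1 with the groups fitted alone and 0 to 4 without an array. The variance trend and cyclic loess lost Il6st there, and sex as a covariate lost Osmr. Between 1 day and 5 days 0 were called in DKO hearts, 3 with array weights, 1 with the low filter, 1 (Clcf1) with the replicate block in the 6-group fit and 0 to 3 without an array. In FFFF hearts 3 were called for that step, 4 with array weights, 1 by the analysis of variance, 0 at an adjusted p of 0.01, 0 with the groups fitted alone, 0 with sex as a covariate and 0 to 3 without an array. The variance trend and the low filter gained Osmr for it. No setting called a member between the genotypes or in the interactions. With the replicate block and the 2 groups of 1 day fitted alone, 0 members and 0 features differed between DKO and FFFF hearts, and Socs3 and Il11 had an adjusted p of 0.50; the replicate block changed no other count of members.

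Over all features, 1252 were called at 1 day in DKO hearts (2727 with array weights, 610 by the analysis of variance, 142 at an adjusted p of 0.01, 112 fitted alone, 206 to 3349 without an array) and 1487 at 5 days (4528 with array weights, 747 by the analysis of variance, 175 at 0.01, 3825 fitted alone, 527 with sex, 167 to 1623 without an array). In FFFF hearts 2870 were called at 1 day (4942 with array weights, 1887 by the analysis of variance, 599 at 0.01, 617 to 3331 without an array) and 4475 at 5 days (8066 with array weights, 1759 at 0.01, 1027 fitted alone, 1942 to 6075 without an array). Between 1 day and 5 days 1124 were called in DKO hearts (2292 with array weights, 691 by the analysis of variance, 178 at 0.01, 58 fitted alone, 479 with sex, 275 to 2041 without an array) and 1531 in FFFF hearts (4335 with array weights, 382 at 0.01, 261 fitted alone, 881 with sex, 513 to 2962 without an array). Between the genotypes 2 were called after sham surgery (10 with array weights, 34 fitted alone, 1 with the trend, the analysis of variance, 0.01, the low filter, loess, the replicate block or sex, 1 to 3 without an array), 0 at 1 day (1 with the trend, 0 to 15 without an array) and 0 at 5 days (1 with the trend, array weights, the low filter or sex, 0 to 3 without an array). In the interactions 1 was called at 1 day (0 by the analysis of variance, at 0.01 or with the replicate block, 0 to 5 without an array) and 0 at 5 days (1 with the trend, array weights, the low filter or sex, 0 to 5 without an array).

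Il6, Osm, Lif and Il11 read near or below the array median, where differences are compressed, and with 3 arrays per group the intervals of the genotype differences span up to 1.61 log2.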
